A study of Mus musculus with 14 samples.

Results

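The 9 genes described here make, store, recapture, sense and break down dopamine. They were chosen by name: Th, Ddc, Gch1, Qdpr, Slc18a2, Slc6a3, Drd2, Maoa and Maob. Every probe set that the array annotation assigns to them alone was taken, which gave 13 probe sets of 45101, for 9 genes of 18193. The choice used no measured value, although earlier results of these data were known when it was made. The 14 libraries were ribosome-bound mRNA that had been immunoprecipitated from mouse ventral midbrain by RiboTag, in which a tagged ribosomal protein in a chosen cell type lets its ribosomes be pulled out of a tissue lysate. Here that cell type was the dopaminergic neuron, and the values were log2 signals on Affymetrix arrays.

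The Tfr1-null libraries (Tfr1ΔDN) came from conditional knockouts without transferrin receptor 1, the iron importer encoded by Tfrc, in dopaminergic neurons. Controls (CTR) were heterozygous for the Tfr1 allele, so they were not wild type, and both genotypes carried the RiboTag background on an F2 of 129Sv and C57BL/6. There were 4 Tfr1-null and 3 control libraries at 3 weeks, and 3 Tfr1-null and 4 control libraries at 10 weeks, ages that the submitters call early and late neurodegeneration. The sources used here do not give the driver of the deletion, the number of animals behind a library or whether animals were pooled. P values therefore measure only the spread between these libraries, which may be technical.

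Dopamine is made in 2 steps. Tyrosine hydroxylase (Th), an enzyme with iron in its active site, turns tyrosine into L-DOPA, and aromatic amino acid decarboxylase (Ddc) turns L-DOPA into dopamine. The first step uses tetrahydrobiopterin, whose synthesis begins with GTP cyclohydrolase (Gch1) and which dihydropteridine reductase (Qdpr) regenerates. The vesicular monoamine transporter (Slc18a2) loads dopamine into synaptic vesicles, the dopamine transporter (Slc6a3) brings released dopamine back, and the D2 receptor (Drd2) on the neuron itself restrains firing and release. The monoamine oxidases Maoa and Maob, on the outer mitochondrial membrane, oxidise the dopamine left in the cytosol. In the brain Maob is best known from astrocytes and serotonergic neurons.

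For 2 libraries the label was doubtful. The library labelled Tfr1-null 3 weeks 1 has a source name that says control, and it read 8.82 log2 units at the middle Tfrc probe set, against 10.88, 10.70 and 10.98 in Tfr1-null 3 weeks 2 to 4 and 8.81, 8.80 and 8.86 in the controls. The library labelled control 10 weeks 1 read 11.43 there, against 11.39, 11.69 and 11.50 in the Tfr1-null libraries of that age and 9.34, 9.17 and 9.86 in control 10 weeks 2 to 4. At the 5′ Tfrc probe set, Tfr1-null 1 to 4 read 9.67, 7.13, 7.73 and 6.88 at 3 weeks, against 9.59, 9.50 and 9.56 in control. At 10 weeks Tfr1-null read 7.79, 8.34 and 9.29 there, and control 1 to 4 read 8.55, 10.15, 9.63 and 10.44. Outside the doubtful libraries Tfr1-null was thus lower at the 5′ and higher at the middle probe set. No library was moved. Fits were made on the 14 libraries as labelled and on the 12 without these, and each value below names its set. Which part of Tfrc was deleted is not stated. The median array signal was 6.41 to 6.47 in the 3-week libraries and 7.36 to 7.43 in the 10-week ones, so levels were compared within an age only. All 182 member values lay above the 25th percentile of their own array.

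With the 14 libraries as labelled, limma called 0 of the 13 member probe sets at either age, at an adjusted p under 0.05 over 45037 probe sets. Unadjusted p lay under 0.05 for 2 of them at 3 weeks and 5 at 10 weeks. Over all probe sets 0% were called at 3 weeks and 0.377% at 10 weeks (0.169% lower, 0.209% higher), with 1630 and 7726 at an unadjusted p under 0.05. Without the doubtful libraries, in the remaining 12, 1 of 13 was called at 3 weeks and 2 were called at 10 weeks. These were Maob at both ages and Drd2 at 10 weeks, all lower in Tfr1-null. The share of all probe sets called in those libraries was 0.797% at 3 weeks (0.469% lower, 0.329% higher) and 6.76% at 10 weeks (3.54% lower, 3.22% higher). These shares depend on single libraries: leaving out each in turn gave 3 to 2990 called at 10 weeks in the 14 libraries, where 170 were called with all of them. The 3 came without control 10 weeks 3 and the 2990 without the library labelled control 10 weeks 1. For the difference between the ages limma called 0 of the 13 in the 14 libraries and 0 in the 12, with 0 and 2 at an unadjusted p under 0.05, against 0% and 0.14% of all probe sets called. The median difference over the 13 in the 12 libraries was -0.13 at 3 weeks and -0.32 at 10 weeks, and that over all probe sets was 0.00 at both ages. In the 14 libraries it was -0.11 and -0.23. Of the 13 probe sets 12 were below 0 at 3 weeks and 13 at 10 weeks in either set of libraries, and in the 12 libraries 5 and 8 of them had an unadjusted p under 0.05, against 3643 and 9984 of all probe sets. The plot of values by library shows these genes, and the plot of differences gives each probe set with its interval.

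**Figure D1:**
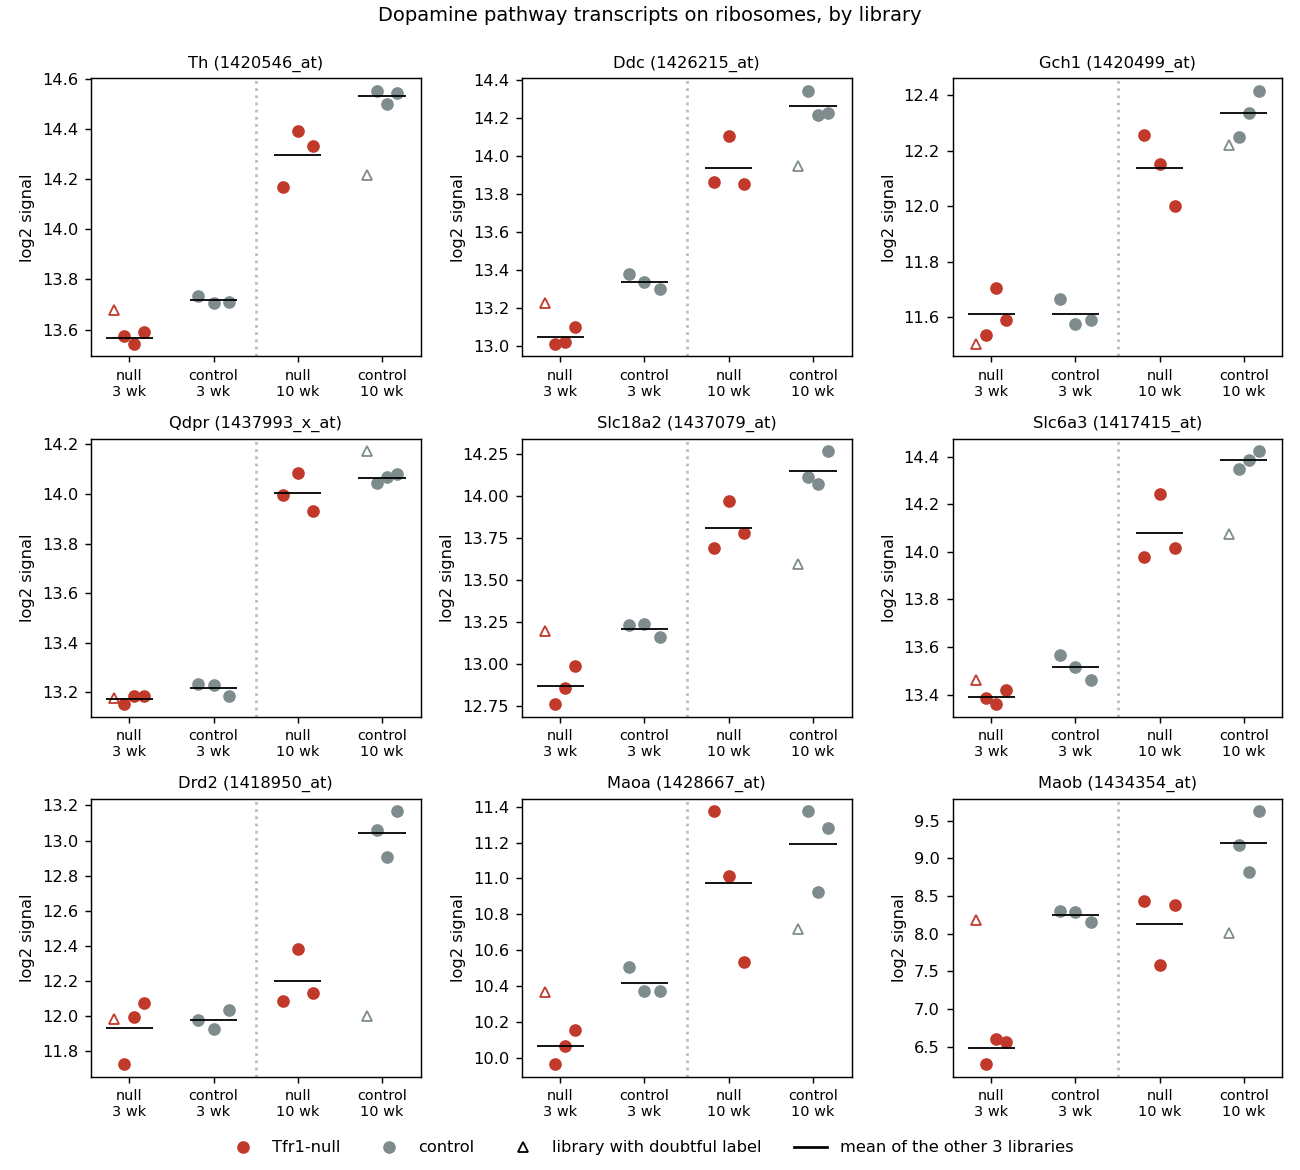
Log2 signal (y axis) of the 9 genes, each by its brightest probe set, in Tfr1-null and control libraries at 3 and 10 weeks (x axis). Filled points are libraries, open triangles the libraries labelled Tfr1-null 3 weeks 1 and control 10 weeks 1, and bars the mean of the other 3 libraries of each group. The y scale differs between genes and the dotted line separates the ages, whose levels are not compared. Maob stands far below control in Tfr1-null 3 weeks 2 to 4, and Drd2 stands below control 10 weeks 2 to 4 in all 3 Tfr1-null libraries of that age.

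Maob, the oxidase, had the lowest ribosome-bound signal relative to control of the 13 probe sets at both ages. At 3 weeks it read 8.19, 6.27, 6.60 and 6.56 in Tfr1-null 1 to 4, against 8.30, 8.28 and 8.15 in the controls. The first Tfr1-null library lay inside the control range and the other 3 lay more than 1.5 log2 units under it. As labelled the difference was -1.34 (SE 0.44, adjusted p = 1.00 by limma). Over the 12 libraries the means were 6.48 ± 0.18 in Tfr1-null and 8.25 ± 0.08 in control (SD, n = 3 each), and Maob fell by 1.77 (SE 0.24, limma adjusted p = 0.0061), to 29.3% of the control signal. All 19 alternatives of that fit kept the call, with differences between -1.83 and -1.67.

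At 10 weeks Maob read 8.43, 7.58 and 8.37 in Tfr1-null, against 8.01, 9.17, 8.82 and 9.63 in control 1 to 4. The Tfr1-null values overlapped only with the library labelled control 10 weeks 1. As labelled the difference was -0.78 (SE 0.44, limma adjusted p = 0.396). Over the 12 libraries Maob fell by 1.08 (SE 0.24, limma adjusted p = 0.0263), to 47.4% of control. The call held in 16 of 19 alternatives, and was lost without control 10 weeks 4 (-0.87, limma adjusted p = 0.059) and with the 10-week libraries fitted alone (limma adjusted p = 0.224), as well as with replicate number as a block. The difference at 10 weeks was 0.69 smaller in size than at 3 weeks (SE 0.34, 95% interval -0.06 to 1.45), and limma did not call it (adjusted p = 0.510, and 0.863 as labelled).

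Maob lies beside Maoa on the X chromosome, and sexes were mixed: by Xist and Eif2s3y, 1 of the 3-week libraries read as male, whereas all 7 of the 10-week libraries did. That 3-week library was control 2, whose Maob of 8.28 lay between the other controls at 8.30 and 8.15. Maob is also made in other cells of the midbrain, so their markers were read beside it. The 7 astrocyte markers, all above the 25th percentile in every library, had mean log2 levels of 9.14 to 9.57 in Tfr1-null, against 9.23 to 9.38 in control at 3 weeks. At 10 weeks these were 10.05 to 10.74 in Tfr1-null, against 9.90 to 10.56 in control. The 4 serotonergic markers measured (of 5, without Fev) lay at 6.36 to 6.72 in Tfr1-null, against 6.47 to 6.68 in control at 3 weeks, and at 6.92 to 8.30 in Tfr1-null, against 7.28 to 8.78 in control, at 10 weeks. The groups overlapped in each case over the 14 libraries. Over the 12 they overlapped too, except for the serotonergic markers at 3 weeks, at 6.36 to 6.47 in Tfr1-null and 6.47 to 6.68 in control, where every Tfr1-null library lay just under every control. Limma called 0 of the astrocyte and 0 of the serotonergic markers at either age in the 12 libraries, with 1 astrocyte marker at an unadjusted p under 0.05, at 10 weeks. At 10 weeks the lowest Maob among Tfr1-null (7.58) fell in the library with the lowest astrocyte and serotonergic levels of its group, whereas the highest Maob among controls (9.63) also fell in the library with the lowest of both. The part of other cells in the Maob difference was not tested.

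Maoa, the other oxidase, had lower values in Tfr1-null at 3 weeks without passing the test. Its probe set 1428667_at read 10.36, 9.97, 10.07 and 10.16 in Tfr1-null 1 to 4, against 10.50, 10.37 and 10.37 in control, and 1442676_at read 10.47, 10.19, 10.05 and 10.31 in Tfr1-null, against 10.50, 10.48 and 10.63 in control. At both probe sets every Tfr1-null library lay under every control. The 12-library differences were -0.35 (SE 0.19, adjusted p = 0.767) and -0.35 (SE 0.14, adjusted p = 0.526), both by limma. At 10 weeks they were -0.22 (SE 0.19, adjusted p = 0.561) and -0.29 (SE 0.14, adjusted p = 0.263) and the groups overlapped. The 10-week values were 11.37, 11.01 and 10.53 in Tfr1-null, against 10.72, 11.37, 10.92 and 11.28 in control 1 to 4, at 1428667_at, with Tfr1-null 1 level with the highest control. As labelled the differences at the 2 probe sets were both -0.28 at 3 weeks and -0.10 and -0.20 at 10 weeks.

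Drd2, the autoreceptor, was lower in Tfr1-null at 10 weeks. At 3 weeks it read 11.98, 11.73, 11.99 and 12.07 in Tfr1-null 1 to 4, against 11.98, 11.92 and 12.03 in control, and the groups overlapped. At 10 weeks it read 12.09, 12.38 and 12.13 in Tfr1-null, against 12.00, 13.06, 12.91 and 13.17 in control 1 to 4. The library labelled control 10 weeks 1 was the lowest of all 7, and the other 3 controls lay above every Tfr1-null library. As labelled the 10-week difference was -0.58 (SE 0.22, limma adjusted p = 0.206). Over the 12 libraries the means were 12.20 ± 0.16 in Tfr1-null and 13.05 ± 0.13 in control (SD, n = 3 each), and Drd2 fell by 0.85 (SE 0.12, limma adjusted p = 0.00338), to 55.6% of control.

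The call for Drd2 at 10 weeks held in 18 of 19 alternatives of the 12-library fit and was lost with the 10-week libraries fitted alone (limma adjusted p = 0.0808). At 3 weeks the 12-library difference was -0.05 (SE 0.12, 95% interval -0.32 to 0.22). The 10-week difference was 0.80 lower than the 3-week one (95% interval -1.18 to -0.41), with an unadjusted p of 0.000854 and an adjusted p of 0.148 by limma (0.751 as labelled), so over all probe sets the ages were not shown to differ. Age goes with sex pattern and with the scale of the arrays in this series, and these cannot be told apart. In bulk material such as this, fewer cells of a type and less RNA per cell cannot be told apart either.

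**Figure D2:**
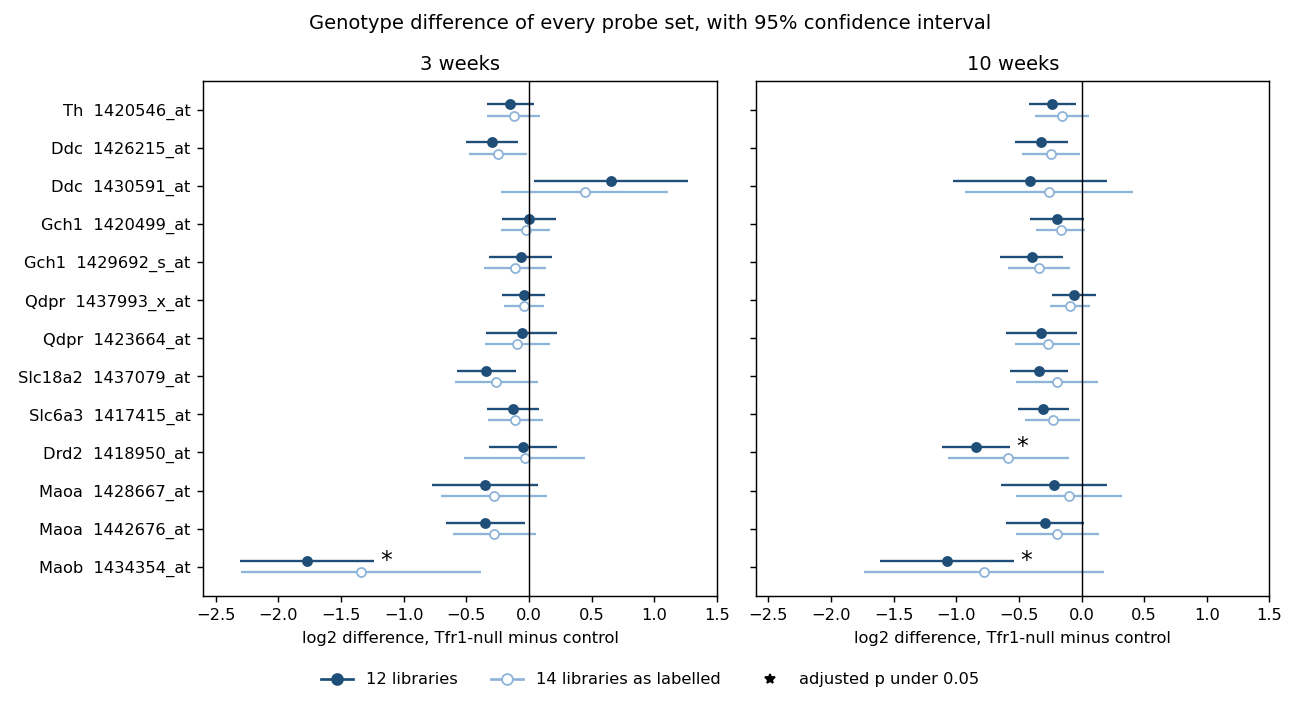
Difference in log2 signal, Tfr1-null minus control (x axis), for the 13 probe sets (y axis) at 3 weeks and 10 weeks. Dark filled points are the 12-library fit, pale open points the 14 libraries as labelled, lines 95% confidence intervals from limma, and stars adjusted p under 0.05. Nearly all points lie left of 0, but only Maob at both ages and Drd2 at 10 weeks carry a star.

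The transporters were lower in Tfr1-null by smaller amounts, and neither passed the test. Slc18a2, the vesicular transporter, read 13.20, 12.77, 12.86 and 12.99 in Tfr1-null 1 to 4, against 13.23, 13.24 and 13.16 in control at 3 weeks. Its 10-week values were 13.69, 13.97 and 13.78 in Tfr1-null, against 13.60, 14.11, 14.07 and 14.27 in control 1 to 4. The libraries other than the doubtful ones did not overlap at either age. The 12-library difference was -0.34 at each age (SE 0.11 each), or 79.0% and 79.1% of control, with limma adjusted p = 0.288 at 3 weeks and 0.085 at 10 weeks. As labelled the differences were -0.26 (limma adjusted p = 1.00) and -0.20 (limma adjusted p = 0.540). Among the alternatives of the 12-library fit Slc18a2 passed at 3 weeks with array weights (limma adjusted p = 0.0357), and at 10 weeks with an intensity trend (0.0311) or without Tfr1-null 2 (0.0487).

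Slc6a3, the plasma membrane transporter, read 13.46, 13.39, 13.36 and 13.42 in Tfr1-null 1 to 4, against 13.57, 13.52 and 13.46 in control at 3 weeks. The 10-week values were 13.98, 14.24 and 14.02 in Tfr1-null, against 14.08, 14.35, 14.39 and 14.42 in control. At 10 weeks control 2 to 4 all lay above the highest Tfr1-null library, which was Tfr1-null 2. The 12-library differences were -0.13 (SE 0.09, 95% interval -0.33 to 0.08, limma adjusted p = 0.90) and -0.31 (SE 0.09, 95% interval -0.51 to -0.10, limma adjusted p = 0.0745), with 91.6% and 80.8% of control as the fitted levels. With all 14 libraries they were -0.11 (limma adjusted p = 1.00) and -0.23 (limma adjusted p = 0.269). At 10 weeks Slc6a3 passed with the trend (limma adjusted p = 0.015) and without Tfr1-null 2 (0.0303).

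The synthesis enzymes kept high signals. Th read 13.68, 13.57, 13.54 and 13.59 in Tfr1-null 1 to 4, against 13.73, 13.71 and 13.71 in control at 3 weeks. By 10 weeks it read 14.17, 14.39 and 14.33 in Tfr1-null, against 14.22, 14.55, 14.50 and 14.54 in control 1 to 4. Apart from the library labelled control 10 weeks 1, every Tfr1-null value lay under every control of its age. The 12-library differences were -0.15 (SE 0.08, 95% interval -0.34 to 0.04, limma adjusted p = 0.796) and -0.23 (SE 0.08, 95% interval -0.42 to -0.05, limma adjusted p = 0.130), or 90.2% and 85.0% of control. As labelled they were -0.12 (limma adjusted p = 1.00) and -0.16 (limma adjusted p = 0.448). Th passed at 10 weeks with the trend (limma adjusted p = 0.02). The highest value on an array was 14.48 to 14.54 at 3 weeks and 15.40 to 15.46 at 10 weeks, so Th was read near the top of the scale.

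Ddc gave 2 probe sets of unlike behaviour. The bright probe set 1426215_at read 13.23, 13.01, 13.02 and 13.10 in Tfr1-null 1 to 4, against 13.38, 13.33 and 13.30 in control at 3 weeks, with no overlap. The 10-week libraries gave 13.86, 14.10 and 13.85 in Tfr1-null, against 13.95, 14.34, 14.21 and 14.23 in control. Its 12-library differences were -0.29 (SE 0.09, limma adjusted p = 0.319) and -0.32 (SE 0.09, limma adjusted p = 0.0705), and as labelled -0.25 (limma adjusted p = 1.00) and -0.24 (limma adjusted p = 0.269). At 3 weeks it passed with array weights (limma adjusted p = 0.0357), and at 10 weeks with the trend (0.0165), with 1 probe set per gene (0.0488) or without Tfr1-null 2 (0.0303). The dim probe set 1430591_at had the 1 positive difference among the 13 at 3 weeks, 0.66 in the 12 libraries (SE 0.28, limma adjusted p = 0.563), with 7.85, 7.30 and 7.17 in Tfr1-null 2 to 4, against 6.50, 6.57 and 7.28 in control. At 10 weeks it differed by -0.41 (SE 0.28, limma adjusted p = 0.438) in the 12 libraries. As labelled it differed by 0.45 at 3 weeks and -0.26 at 10 weeks, with limma adjusted p of 1.00 and 0.717. Which transcript this probe set reads is not stated.

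The cofactor genes lay close to control at 3 weeks. The 2 probe sets of Gch1 differed by -0.00 (SE 0.10) for 1420499_at and -0.07 (SE 0.11) for 1429692_s_at in the 12 libraries, and those of Qdpr by -0.04 (SE 0.08) for 1437993_x_at and -0.06 (SE 0.13) for 1423664_at, all at a limma adjusted p of 1.00. As labelled these were -0.03 and -0.11 for Gch1 and -0.04 and -0.09 for Qdpr, again at 1.00. At 10 weeks the brighter probe set of each differed by -0.20 (SE 0.10, limma adjusted p = 0.270) for Gch1 and -0.06 (SE 0.08, limma adjusted p = 0.707) for Qdpr in the 12 libraries, and by -0.17 and -0.09 as labelled. The dimmer probe sets stood lower, at -0.40 (SE 0.11, limma adjusted p = 0.0638) for Gch1 and -0.32 (SE 0.13, limma adjusted p = 0.168) for Qdpr. Gch1 at 1429692_s_at read 10.64, 10.94 and 10.71 in Tfr1-null, against 10.93, 11.13, 11.35 and 11.00 in control 1 to 4 at 10 weeks. Qdpr at 1423664_at read 11.90, 12.42 and 12.11 in Tfr1-null of that age, against 12.26, 12.58, 12.45 and 12.36 in control. The highest Tfr1-null library overlapped with the controls for Qdpr, and for Gch1 overlap came only from the library labelled control 10 weeks 1. As labelled the 10-week differences of these probe sets were -0.34 (limma adjusted p = 0.162) for Gch1 and -0.27 (limma adjusted p = 0.271) for Qdpr. Without Tfr1-null 2 both passed at 10 weeks in the 12 libraries (limma adjusted p = 0.0337 for Gch1 and 0.0378 for Qdpr), and Gch1 also without control 4 (0.0412). By Affymetrix naming, an _s_at or _x_at probe set can also match other transcripts, so the disagreement within each gene leaves its size uncertain.

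Counting groups rather than tests, all 3 Tfr1-null libraries lay under all 3 controls for 7 of the 13 probe sets at 3 weeks and 7 at 10 weeks in the 12 libraries, and lay above them for 0. Over all probe sets the share lying under was 9.37% at 3 weeks and 9.55% at 10 weeks, and the share lying above was 10.7% and 9.23%. The members lying under at both ages were Th, Ddc at 1426215_at, Slc18a2, Slc6a3 and Maob. Maoa joined them at both of its probe sets at 3 weeks, and Drd2 and Gch1 at 1429692_s_at at 10 weeks. With the labels as given, the count was 4 of 13 at 3 weeks, against 3.69% of all probe sets (3.08% lay above), and 0 of 13 at 10 weeks, against 4.27% (4.4% lay above). The library labelled Tfr1-null 3 weeks 1 lay nearer to the control mean than to the mean of the other Tfr1-null libraries at 9 of 13 member probe sets (61.5% of all probe sets). The library labelled control 10 weeks 1 lay nearer to the Tfr1-null mean than to that of the other controls at 12 of 13 (56.3% of all probe sets).

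Th, Slc18a2, Slc6a3 and Drd2 are the members most closely tied to dopaminergic neurons, and the bases around their starts are shown so that the motifs named next can be seen in place. Promoter windows were matched for 8 of the 9 members, all but Maob. Each run is RefSeq sequence of GRCm38.p6, from 250 bases before to 50 after the annotated start, read 5′ to 3′ on the gene's strand. Capitals mark matches, on either strand, to the CRE (TGACGTCA), the AP-1 motif TGANTCA, the hypoxia response core ACGTG and the GC box GGGCGG. The NBRE of Nr4a2 (AAAGGTCA), TATAAA and the bicoid-type TAATCC were also searched and had no match in these 4 windows. Th lies at chr7:142899946-142900245 on the minus strand, Slc18a2 at chr19:59260628-59260927, Slc6a3 at chr13:73536497-73536796 and Drd2 at chr9:49340153-49340452, these 3 on the plus strand.
Th: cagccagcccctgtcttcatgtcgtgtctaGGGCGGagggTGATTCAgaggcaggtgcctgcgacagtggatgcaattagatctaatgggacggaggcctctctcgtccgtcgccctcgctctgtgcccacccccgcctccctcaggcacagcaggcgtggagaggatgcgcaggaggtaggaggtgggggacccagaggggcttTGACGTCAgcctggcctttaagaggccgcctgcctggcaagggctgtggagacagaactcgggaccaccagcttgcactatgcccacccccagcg
Slc18a2: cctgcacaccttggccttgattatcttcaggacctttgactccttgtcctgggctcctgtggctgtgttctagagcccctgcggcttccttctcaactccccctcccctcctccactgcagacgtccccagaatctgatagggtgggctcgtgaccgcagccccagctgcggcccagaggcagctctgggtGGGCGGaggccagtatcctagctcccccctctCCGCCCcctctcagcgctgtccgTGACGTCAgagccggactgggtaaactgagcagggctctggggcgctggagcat
Slc6a3: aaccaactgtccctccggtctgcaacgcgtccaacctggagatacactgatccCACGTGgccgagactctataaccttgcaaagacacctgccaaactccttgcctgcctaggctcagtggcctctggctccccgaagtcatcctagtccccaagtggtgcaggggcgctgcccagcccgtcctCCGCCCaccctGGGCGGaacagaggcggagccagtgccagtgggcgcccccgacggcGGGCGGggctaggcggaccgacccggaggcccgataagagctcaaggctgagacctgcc
Drd2: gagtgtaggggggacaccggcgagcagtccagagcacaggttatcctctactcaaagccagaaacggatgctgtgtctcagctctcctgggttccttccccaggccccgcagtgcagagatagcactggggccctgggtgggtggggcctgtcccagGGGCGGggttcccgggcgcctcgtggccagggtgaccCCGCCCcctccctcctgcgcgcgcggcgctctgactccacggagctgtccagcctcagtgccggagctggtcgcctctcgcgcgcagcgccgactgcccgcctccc

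The CRE, the site of the cyclic AMP response factor CREB, stood in the windows of Th, with its first base at -45 from the start, and of Slc18a2, at -4. It was found in 1.79% of 32851 promoter windows of this length. The window of Th also held an AP-1 match at -210 (7.81% of windows). Slc6a3 held the palindrome CACGTG, which counts as overlapping matches to the hypoxia core on both strands at -197 and -196 (19.6% of windows). GC boxes occurred in all 4 windows, 2 of them in Drd2 at -93 and -56, and in 35.7% of all windows. Among the other members, Ddc had an NBRE match at -73, which overlaps a TATA match, in the first of its 2 windows (1.51% of windows hold an NBRE). These are letter matches in a short window, and no binding was measured.

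Other genes of the pathway were read from a list of 20, of which 15 were measured and the others were not analysed here. For the 12 libraries limma called 1 lower and 1 higher at 3 weeks and 4 lower and 1 higher at 10 weeks. In the 14 as labelled it called 0 at either age, with 2 at 3 weeks and 5 at 10 weeks at an unadjusted p under 0.05. The median difference over the 15 was -0.03 at 3 weeks and -0.10 at 10 weeks in the 12 libraries, and -0.03 and -0.00 in the 14. The values of single genes that follow, in these lists and in the markers, are from the 12 libraries unless said to be as labelled. Pcbd1, which returns tetrahydrobiopterin to the cycle after each hydroxylation, fell by 1.33 (SE 0.17, limma adjusted p = 0.00398) at 3 weeks, to 9.96 in Tfr1-null against 11.29 in control. At 10 weeks it fell by 1.77 (SE 0.17, limma adjusted p = 0.000338), to 10.60 in Tfr1-null against 12.37 in control. Both calls held with each of the 12 libraries left out in turn, and as labelled the differences were -1.02 (limma adjusted p = 1.00) and -1.36 (limma adjusted p = 0.132). Its paralogue Pcbd2 fell by 0.84 (SE 0.21, limma adjusted p = 0.037) at 10 weeks, a call that held in 3 of the 12 runs with a library left out (as labelled -0.67, limma adjusted p = 0.157). Spr and Pts, which complete tetrahydrobiopterin synthesis after Gch1, differed by -0.33 and -0.22 at 3 weeks and -0.10 and -0.35 at 10 weeks, and neither passed.

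Of 3 amino acid carrier genes on the list, Slc7a5 was called higher at both ages and Slc7a8 lower at 10 weeks. Slc7a5, the large neutral amino acid transporter that carries tyrosine and L-DOPA, rose by 0.81 (SE 0.16, limma adjusted p = 0.0434) at 3 weeks and by 0.79 (SE 0.16, limma adjusted p = 0.0144) at 10 weeks. With a library left out the 3-week call held in 2 of 12 runs and the 10-week call in all 12. As labelled the differences were 0.62 (limma adjusted p = 1.00) and 0.55 (limma adjusted p = 0.306). Slc3a2, which encodes the heavy chain that Slc7a5 and Slc7a8 pair with, differed by 0.35 (SE 0.16, limma adjusted p = 0.606) at 3 weeks and 0.41 (SE 0.16, limma adjusted p = 0.148) at 10 weeks. Slc7a8, a related carrier, fell by 1.00 (SE 0.21, limma adjusted p = 0.0185) at 10 weeks, in 10 of 12 such runs (as labelled -0.77, limma adjusted p = 0.16). Sv2c, a vesicle protein abundant in dopaminergic neurons, fell by 0.77 (SE 0.20, limma adjusted p = 0.0418) at 10 weeks, in 4 of 12 such runs (as labelled -0.51, limma adjusted p = 0.388). Aldh1a1, which clears the aldehyde that the oxidases make from dopamine, differed by -0.17 (SE 0.08) at 3 weeks and -0.28 (SE 0.08, limma adjusted p = 0.0723) at 10 weeks.

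Of 20 other dopamine receptors and genes of autoreceptor signalling, 18 were measured, without Drd5 and Grk2. Limma called 1 lower at 3 weeks, and 2 lower and 1 higher at 10 weeks in the 12 libraries. As labelled it called 0 of them at either age, with 1 at 3 weeks and 3 at 10 weeks at an unadjusted p under 0.05. Rgs4, which shuts off G protein signals of receptors such as D2, fell by 1.09 (SE 0.20, limma adjusted p = 0.0288) at 3 weeks and by 1.98 (SE 0.20, limma adjusted p = 0.000364) at 10 weeks. With a library left out the 3-week call held in 6 of 12 runs and the 10-week call in all 12, and as labelled the differences were -0.79 (limma adjusted p = 1.00) and -1.56 (limma adjusted p = 0.102). Adcy5, an adenylyl cyclase that D2 receptors inhibit, fell by 0.81 (SE 0.13, limma adjusted p = 0.00637) at 10 weeks, and Gnai3, an inhibitory G protein subunit, rose by 0.60 (SE 0.13, limma adjusted p = 0.0196). The call for Adcy5 held in all 12 runs with a library left out and that for Gnai3 in 10, and as labelled they differed by -0.71 (limma adjusted p = 0.0505) and 0.41 (limma adjusted p = 0.313). Kcnj6, the potassium channel subunit that the autoreceptor opens, differed by -0.46 (SE 0.26, limma adjusted p = 0.349) at 10 weeks. The median over the 18 was -0.02 at 3 weeks and 0.10 at 10 weeks in the 12 libraries, and -0.02 and 0.03 in the 14.

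**Figure D3:**
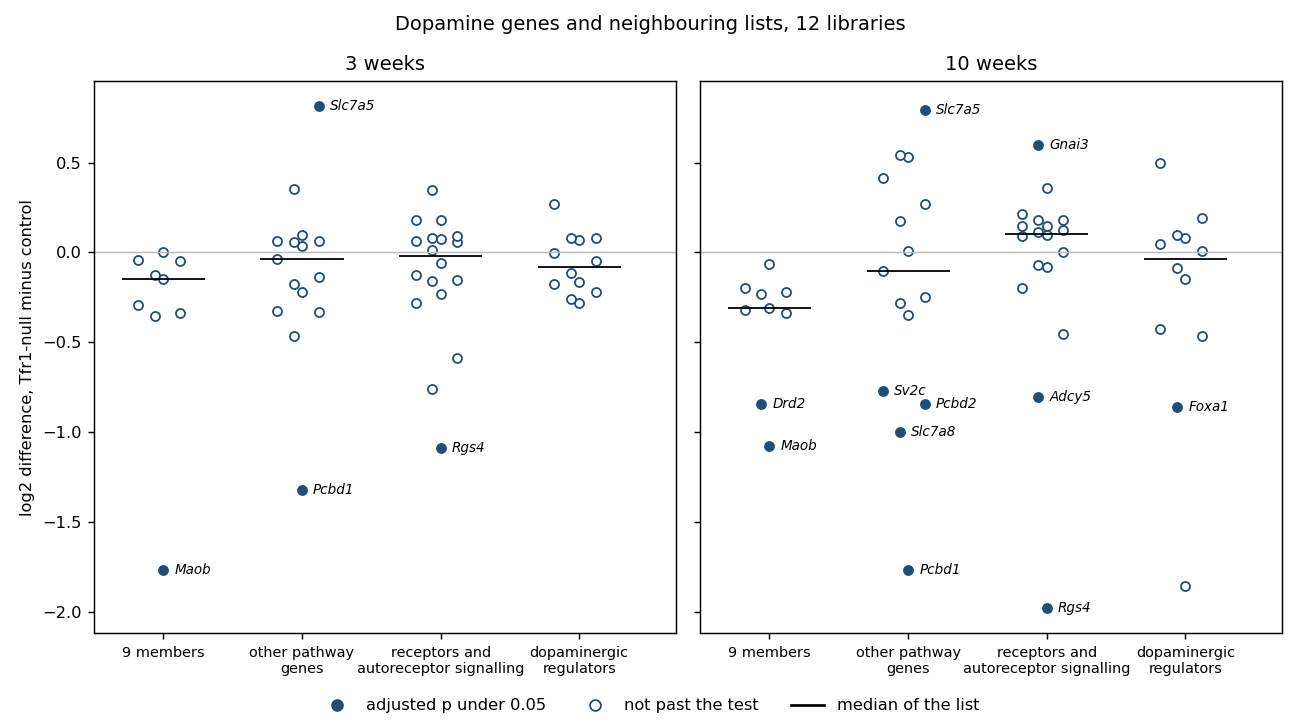
Difference in log2 signal, Tfr1-null minus control (y axis), in the 12 libraries for the 9 members (each by its brightest probe set) and 3 further gene lists (x axis) at 3 and 10 weeks. Filled, named points passed limma at an adjusted p under 0.05, open points did not, and bars are the median of each list. Maob at 3 weeks and Drd2 and Maob at 10 weeks are the named members, and Pcbd1 and Rgs4 are lower at both ages.

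The 12 transcription factors and receptors that set up and keep the dopaminergic phenotype were all measured, and limma called 0 at 3 weeks (1 at an unadjusted p under 0.05) and 1 at 10 weeks in the 12 libraries. As labelled it called 0 at either age, with 0 and 4 at an unadjusted p under 0.05. The smallest p values at 3 weeks were those of En2, which differed by 0.27, and Otx2, which differed by -0.28, with limma adjusted p of 0.577 and 0.923. At 10 weeks Foxa1, a forkhead factor of these neurons, fell by 0.86 (SE 0.09, limma adjusted p = 0.00049), also with each library left out in turn (as labelled -0.68, limma adjusted p = 0.0697). Nr4a2, which activates Th and Slc6a3, differed by -0.11 (SE 0.18) at 3 weeks and 0.10 (SE 0.18) at 10 weeks. Pitx3 differed by -1.86 at 10 weeks with an SE of 0.69 (limma adjusted p = 0.144), a size that rests on control 10 weeks 3. That library read 12.42, against 8.06 to 8.84 in Tfr1-null and 8.99 and 9.30 in control 2 and 4, and without it the difference was -0.77 (SE 0.21, limma adjusted p = 0.0728).

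For the labelled cell type, 9 measured dopaminergic markers that are no members were read, all above the 25th percentile in all 14 libraries. The same held for the astrocyte, serotonergic, oligodendrocyte and endothelial markers measured, and no whole-tissue library was there to compare. This therefore does not check the cell type. The mean log2 level of the dopaminergic markers was 11.46 to 11.52 in Tfr1-null, against 11.53 to 11.55 in control at 3 weeks. The groups did not overlap there, by a narrow gap, with or without the doubtful library. Without Pitx3 the 3-week groups overlapped, at 11.87 to 11.94 in Tfr1-null 2 to 4 and 11.90 to 11.95 in control. At 10 weeks it was 11.84 to 12.15 in Tfr1-null, against 11.90 to 12.51 in control, or 12.07 to 12.51 in control 2 to 4. The 12.51 is that of control 3 with its high Pitx3, and without Pitx3 the 8 other markers averaged 12.31 to 12.56 in Tfr1-null, against 12.46 to 12.70 in control 2 to 4. Of the 9, limma called 0 at 3 weeks (0 at an unadjusted p under 0.05) and Chrna6 (-0.52, SE 0.12, limma adjusted p = 0.0248) at 10 weeks in the 12 libraries, in 9 of 12 runs with a library left out. As labelled it called 0 at either age, with 0 and 4 at an unadjusted p under 0.05, and Chrna6 differed by -0.32 (limma adjusted p = 0.378). The median difference over the 9 was -0.11 at each age in the 12 libraries, but directions were mixed. At 3 weeks Chrnb3 read 11.78, 11.90 and 11.91 in Tfr1-null 2 to 4, against 11.67, 11.56 and 11.61 in control. Aldh1a1 went the other way, with 13.12, 13.06 and 13.16, against 13.30, 13.33 and 13.22.

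Markers of other cells were read in the same way. The 7 microglial markers averaged 6.67 to 6.80 in Tfr1-null, against 6.50 to 6.66 in control at 3 weeks, and 8.00 to 8.17 in Tfr1-null, against 7.06 to 7.73 in control at 10 weeks, in the 12 libraries. By this mean, which includes Cd68, every Tfr1-null library lay above every control at both ages. With the doubtful libraries (6.65 in Tfr1-null 3 weeks 1 and 8.38 in control 10 weeks 1) the groups overlapped. Of the 7, limma called Cd68, a lysosomal protein of phagocytes, higher by 2.01 (SE 0.16, limma adjusted p = 0.000215) at 3 weeks and 3.87 (SE 0.16, limma adjusted p = 1.03e-06) at 10 weeks. As labelled Cd68 differed by 1.52 (limma adjusted p = 1.00) and 3.03 (limma adjusted p = 0.0832). Among the 7, only Cd68 had every Tfr1-null value above every control in the 12 libraries, at either age. The median difference over the 7 was -0.10 at 3 weeks and 0.41 at 10 weeks there, so the higher 3-week mean was not a rise of most markers. The 4 GABAergic markers measured averaged 8.57 to 8.99 in Tfr1-null, against 8.56 to 8.70 in control at 3 weeks in the 12 libraries. At 10 weeks they averaged 9.65 to 9.97 in Tfr1-null, against 9.43 to 9.60 in control 2 to 4, with no overlap, and 9.97 in the library labelled control 10 weeks 1. Slc32a1, the vesicular GABA transporter, read 11.56, 11.77 and 11.73 in Tfr1-null 2 to 4 at 3 weeks, against 11.43, 11.20 and 11.28 in control, a difference of 0.38 (SE 0.13, limma adjusted p = 0.356). At 10 weeks it rose by 0.70 (SE 0.13, limma adjusted p = 0.0114), and as labelled it differed by 0.49 (limma adjusted p = 0.235). Only Slc32a1 of the 4 had every Tfr1-null value above every control in the 12 libraries at 10 weeks. The other markers overlapped there. Gad1 read 9.58 to 10.60 in Tfr1-null, against 9.47 to 10.18 in control 2 to 4. Gad2 read 11.63 to 12.45, against 11.55 to 11.96, and Dlx1 4.92 to 5.21, against 4.48 to 5.20. The median difference over the 4 was 0.26. Noradrenergic neurons also make dopamine, and the 4 of their markers measured, over the 14 libraries, lay at 4.86 to 5.12 in Tfr1-null, against 4.85 to 4.97 in control, at 3 weeks, and at 6.04 to 6.33 in Tfr1-null, against 6.11 to 6.30 in control, at 10 weeks. These means hold dim values. At 3 weeks Hoxd3 read 3.12 to 3.74, under the 25th percentile of the arrays (4.33 to 4.41), and Phox2a read 4.43 to 4.83. Of the glutamatergic, oligodendrocyte and endothelial markers limma called 0 at either age in the 12 libraries, with 1 glutamatergic and 1 endothelial marker at an unadjusted p under 0.05, both at 10 weeks. The 6 oligodendrocyte markers measured averaged 10.35 to 10.70 in Tfr1-null there, against 10.63 to 10.74 in control, at 3 weeks. At 10 weeks they averaged 10.74 to 11.46, against 10.83 to 11.75. Mbp, among them, read 12.83 to 14.06 over the 14 libraries. How much RNA of other cells the libraries held was not estimated. The part of these cells in the member differences was not tested.

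By likeness of pattern, the genes nearest to each of Th, Slc6a3, Slc18a2 and Drd2 were sought among 11167 other genes with a mean above the array median. Likeness was Pearson's r over the 14 libraries after each age was centred on its mean, given as a description, since the libraries of an age share their normalization. Genotype was not centred, so r also carries the genotype difference and the doubtful libraries. The genes below were picked by this r. Their r within an age and their genotype differences are therefore not independent of the choice and add no support. For Th these were Styk1 (0.97), Mn1 (0.97) and 1700001C19Rik (0.97), and for Slc6a3 they were Styk1 (0.96), the neurotensin receptor gene Ntsr1 (0.96) and Col25a1 (0.95). Slc18a2 ran closest to Pdzd8 (0.99), followed by 1700001C19Rik (0.95) and Msrb2 (0.95). Drd2 ran closest to Diras2 (0.97), the nicotinic receptor subunit gene Chrna5 (0.97) and Mrpl20 (0.96). For Drd2 the likeness was closer at 10 weeks (0.97 to 0.99) than at 3 weeks (0.63 to 0.82), when Drd2 itself ranged only between 11.73 and 12.07. Pdzd8 tracked Slc18a2 at both ages (0.99 each), with a difference of -0.50 at 3 weeks and -0.54 at 10 weeks in the 12 libraries.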

How the data were processed

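RNA, 50 ng for each array, was amplified by NuGEN Ovation V2 and hybridized to Affymetrix arrays, per the labels' protocols. The deposited log2 signals came from RMA in Partek 6.5, per the submitters' processing notes. They were used as deposited, and no column lacked a sample. Within an age the arrays share nearly 1 distribution and between ages they do not. Groups follow the titles. The 64 control probe sets were left out and 45037 were tested. A gene named alone by a probe set took that symbol (34958 probe sets with 1 symbol, 932 with several, 9211 with none), and lists used the probe set with the highest mean. Differences were tested with limma 3.58.1 in R 4.3.3 (lmFit, eBayes), with 4 group means and 1 shared spread per probe set (residual degrees of freedom 10 for 14 libraries and 8 for 12), and Benjamini-Hochberg adjustment over all probe sets. SE is limma's moderated standard error.

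All adjusted p values are limma's. In simulated data for the 12-library comparison at 10 weeks, over 45037 probe sets, 16% of the changes planted at 0.5 log2 units were recovered, 58% of those at 1 unit and 98% of those at 2 units, and 4 unplanted probe sets were called. The 3-week comparison recovered 12%, 70% and 92%, and 7 unplanted ones were called. Only increases were planted, in 50 probe sets per size, with independent normal noise. These rates therefore hold for that setting and do not give the power for the members. The members and lists were chosen with earlier results of these data known. The rule names every member and each called gene of a list, at most 4 per direction, or the 2 with the smallest p. The other list genes given by value (Spr, Pts, Slc3a2, Aldh1a1, Kcnj6, Nr4a2 and Pitx3) were chosen after their values were seen. Leaving out libraries, a replicate block, a filter on dim probe sets, 1 probe set per gene, quantile normalization, single ages, array weights and an intensity trend were tried. Figures were drawn with matplotlib 3.10.9.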

Additional observations from a re-analysis of the deposited data

Results flagged for a closer look

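In 26 groups of 4 libraries (13 probe sets, Tfr1-null at 3 weeks and control at 10 weeks), 2 held a library far from the other 3 by Dixon's criterion, and chance flags about 1 group in 20. Th at 1420546_at read 14.22 in the library labelled control 10 weeks 1, against 14.50 to 14.55 in control 10 weeks 2 to 4, a gap of 0.844 of the group's range. Gch1 at 1429692_s_at read 10.08 in the library labelled Tfr1-null 3 weeks 1, against 10.25 to 10.26 in Tfr1-null 3 weeks 2 to 4, a gap of 0.920 of the range. Both are the libraries with doubtful labels. The Th value lay within the Tfr1-null range of its age (14.17 to 14.39). The Gch1 value, by contrast, lay below the 3-week controls as well, which read 10.26 to 10.38.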

How the results depend on the processing

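The 14-library counts of called member probe sets stayed at 0 at 3 weeks and for the difference between ages in every alternative run, and lay between 0 and 1 at 10 weeks when each library was left out in turn, the 1 being Drd2 without the library labelled control 10 weeks 1. In the 12 libraries the 3-week count of 1 was 1 in each run with a library left out and 3 with array weights, which added Ddc and Slc18a2. The 10-week count of 2 was 1 with the replicate block, 0 with each age fitted alone, 3 with 1 probe set per gene (Ddc added) and 6 with an intensity trend (Th, Ddc, Slc18a2 and Slc6a3 added). It was 2 to 7 with a library left out, the 7 being without Tfr1-null 10 weeks 2 (Ddc, Gch1, Qdpr, Slc18a2 and Slc6a3 added). The causes were not tested. Single ages and left-out libraries leave fewer libraries, and single ages also give each age its own spread. In the 12 libraries the SD of Maob was 0.18 in Tfr1-null and 0.08 in control at 3 weeks. It was 0.47 and 0.40 at 10 weeks. The SD of Drd2 was 0.18 and 0.06 at 3 weeks, and 0.16 and 0.13 at 10 weeks. The shared spread gave each gene the same SE at both ages (0.24 for Maob and 0.12 for Drd2). Called probe sets over the whole table moved too: 359 at 3 weeks became 918 with single ages, 1825 with array weights, 196 with the block and 184 to 453 with a library left out. The 3045 at 10 weeks became 223, 1054 and 1327 in the same order, 2015 with 1 probe set per gene and 2089 to 3469 with a library left out. The 170 at 10 weeks in 14 libraries became 3 to 2990 with a library left out (3 without control 10 weeks 3, 2990 without the library labelled control 10 weeks 1), 2 with single ages, 4 with array weights and 6 with the block. For the difference between ages in 12 libraries, 63 became 4 with the block and 9 to 93 with a library left out. Leaving libraries out for the list genes, and Pitx3 out of the marker mean, was chosen after seeing the data.

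Deviations of same-numbered libraries correlated at -0.02 to 0.15 at 3 weeks and -0.05 to 0.07 at 10 weeks. Those of libraries with different numbers correlated at -0.26 to 0.20 and -0.10 to 0.12. No pairing by number was seen, but 3 same-numbered pairs at each age are too few to exclude it. With the replicate block Maob at 10 weeks differed by -1.04 (limma adjusted p = 0.0789), and Gch1 at 1420499_at at 3 weeks by 0.0294, both in 12 libraries. Other sign changes came from leaving out a library and concern differences near 0 that were not called. Gch1 at 1420499_at at 3 weeks ran between -0.0673 and 0.00135 (positive without control 1) in 14 libraries, and between -0.0476 and 0.0368 (positive without control 1, Tfr1-null 2 or Tfr1-null 4) in 12. Drd2 at 3 weeks ran between -0.0781 and 0.0380 in 14 libraries and between -0.120 and 0.0543 in 12 (positive without Tfr1-null 2). Maoa at 1428667_at at 10 weeks ran between -0.300 and 0.120 in 14 libraries (positive without Tfr1-null 3 or control 2) and between -0.420 and 0.000733 in 12 (positive without Tfr1-null 3). Of the runs on single probe sets 996 kept direction and call, 10 changed sign, 14 gained a call and 4 lost it.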
